A study of Mus musculus with 3 samples.

Results

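The cells described here are the visceral endoderm (VE) cells of VE cysts that a score of 10 genes placed nearest to yolk sac endoderm. They were chosen by their own transcript counts with a score per cell, the mean log2(CPM + 10) of 5 parietal endoderm genes (Lama1, Col4a1, Plat, Vim and Thbd) minus that of 5 yolk sac endoderm genes (Ttr, Apoa1, Apob, Apom and Afp), where CPM are the unique molecular identifiers (UMIs) of a gene scaled to 1000000 UMIs. The score was computed for barcodes with at least 4000 genes, at most 10% mitochondrial UMIs and more UMIs of the VE markers Gata6, Sox17, Dab2 and Cubn than of the epiblast (Epi) markers Pou5f1, Sox2, Nanog and Fgf4. The 25% of these cells with the lowest score, 144 of 577, are called yolk sac-like cells below, the middle 50%, 289 cells, are the reference, and the 144 cells with the highest score are called parietal-like. The 144 cells come from 2692 cells that passed the filter in all 3 libraries of the series.

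Each library held 1 type of aggregate, profiled once with 10x Genomics 3' v3.1 chemistry, so the cells of a library are no replicates and differences are described without p-values. VE cysts were grown from mouse iGATA embryonic stem cells (clone C6, strain E14tg2a), a single clone in which doxycycline induces GATA4. They had 0.5 µg/ml doxycycline for 8 h in 2i + LIF and for 16 h more in N2B27 that held FGF4 at 10 ng/ml and heparin at 1 µg/ml, and then 3 days on gelatin in N2B27 with both factors again and no further doxycycline named. About 200 round cysts were picked by hand and pooled, with the aim of leaving out structures with a visible core of Epi-like cells. BELAs, the bilayered aggregates of Epi and VE cells used here for comparison, came from the same clone with 8 h of the same doxycycline dose in 2i + LIF, 16 h in N2B27 and 3 days after seeding, with no added FGF4 or heparin named. Epi cysts, whose cells served only for comparison, were grown from iGATA cells in matrigel, with 1 day in 2i + LIF, 3 days in N2B27 and no doxycycline named. 

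The visceral endoderm is the polarised epithelium that surrounds the early mouse embryo. Its extraembryonic part lines the yolk sac, takes up maternal nutrients by endocytosis and secretes serum proteins and apolipoproteins before the liver exists. The parietal endoderm arises from the same primitive endoderm, loses its epithelial form and lays down a thick basement membrane of laminins and type IV collagen. VE cells next to the epiblast (emVE) and the anterior visceral endoderm (AVE) carry further genes, among them Lhx1, Otx2 and Cer1.

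The yolk sac-like cells had a median of 62211.5 UMIs and 7348.5 genes per cell, the reference 56469 UMIs and 7156 genes, and the parietal-like cells 55298 UMIs and 7035 genes. Median mitochondrial shares were 5.396%, 5.455% and 5.472%. Ribosomal protein genes took 17.3%, 18.3% and 19.8% of the UMIs, and what part this had in other differences was not tested. No barcode was shared between the VE cyst and BELA libraries and 1 was shared between VE and Epi cysts. Scrublet called 3 of the 881 VE cyst barcodes as doublets, none of them among the 144 cells, and called barcodes were kept except as an alternative. Levels are UMIs summed over the cells of a group, with exact 95% Poisson intervals, and shares of cells have Clopper-Pearson intervals. Both cover counting error only and not the spread between cultures, and the Poisson intervals do not cover the spread between cells either.

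The score had no gap at the chosen edge. It ran from -4.96 to 4.95 in VE cysts, and 24 of the 577 cells lay within 0.1 of the edge. The last cell inside had a score of 1.374 and 20971 UMIs, with Ttr at 906 CPM and no UMI of the other 4 yolk sac genes of the score. The first cell outside had a score of 1.385 and 61102 UMIs, with Ttr at 867 CPM, Apoa1 at 81.8 CPM, Apob at 65.5 CPM and Apom at 180.03 CPM. The inside cell was lower in basement membrane genes as well, with Col4a1 at 954 CPM inside and 5123 CPM outside. Over the 577 cells, the score had a Pearson r of -0.05 with log depth, and its parietal and yolk sac sides had an r of -0.31 with each other. These values describe single cells of 1 library whose levels share each cell's depth. With any 1 of the 10 genes left out of the score, between 128 and 141 of the 144 cells were again in the lowest 25%, with the fewest when Vim was left out. The yolk sac genes of the score alone chose 117 of the 144 cells again (81.25%), and its parietal genes alone only 85 (59.0%).

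**Figure D1:**
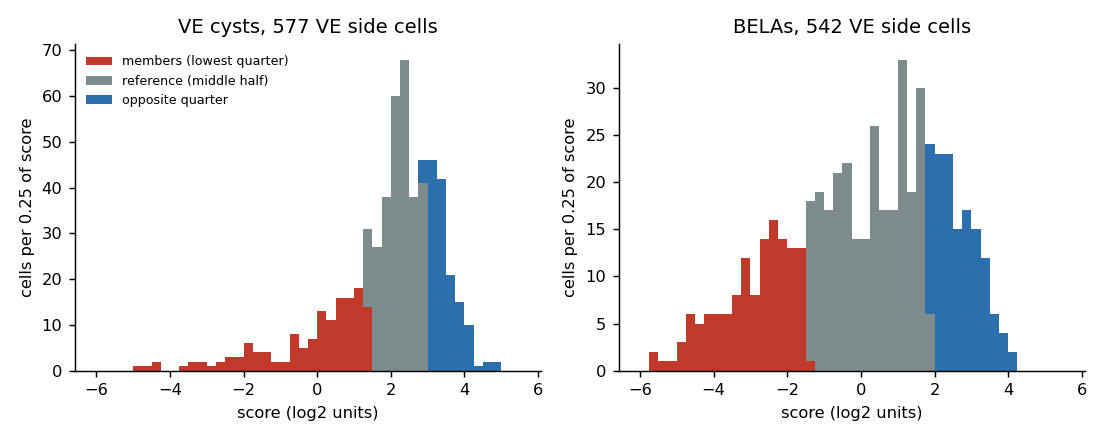
Histograms of the score of each VE side cell in VE cysts (left) and BELAs (right), in cells per 0.25 of score, with the lowest 25% in red, the middle 50% in grey and the highest 25% in blue. In VE cysts the red cells form the long left tail from -4.96 to 1.374, and in BELAs the red cells end at -1.49.

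The score genes gave the size of the selection and are no evidence for it. Ttr, the carrier of thyroid hormone and retinol-binding protein, stood at 2303 CPM (2272 to 2334) in yolk sac-like cells, 1112 CPM in the reference and 434 CPM in parietal-like cells. Apoa1 stood at 201, 5.44 and 0.116 CPM in the same order, Apob at 238, 6.52 and 0.578 CPM, Apom at 302, 74.7 and 25.6 CPM, and the fetal serum protein Afp at 135, 4.01 and 0.925 CPM. The laminin gene Lama1 stood at 509, 987 and 1416 CPM and Col4a1 at 3811, 5532 and 5955 CPM. Plat stood at 80.5, 125 and 144 CPM and Vim at 48.9, 64.5 and 136 CPM. Thbd had no UMI in yolk sac-like cells, which allows up to 0.320 CPM, and at most 0.578 CPM in the other groups, so this gene separated almost no cells.

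Of the 5 yolk sac genes of the score, 41 of the 144 cells (28.5%) had a UMI of all 5, 59 cells had 4 and 3 cells had only 1. In the reference 5 of 289 cells (1.73%) had all 5. The chosen cells were uneven in these genes. Ttr had a UMI in 143 of 144 cells, Apom in 140 of 144, Apob in 99 of 144, Apoa1 in 95 of 144 and Afp in 82 of 144. As few as 3 cells held 50% of the Afp UMIs, 7 cells held 50% of those of Apoa1 and 10 of those of Apob, but 36 cells were needed for Ttr.

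A single cell among the 144 did not match the label. It had 94133 UMIs and entered with 6 Dab2 UMIs against 5 Sox2 UMIs, while each of the other 143 cells had at least 33 UMIs of the 4 VE markers. It had no UMI of Ttr, Cubn, Amn, Spink1 or Gata6 and 3 of Sparc, of which each of the others had at least 45. It held 309 UMIs of Crabp1 (96.9% of those in all 144 cells), 25 of Prrx2 and 17 of Tfap2a, and it had 3 UMIs of Col4a1 and 1 of Afp. Crabp1, one of the 65 genes counted below, rests on this cell. Without this cell, the counts given below were 65 genes higher and 16 lower, against 65 and 17 with it.

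To see which other genes differed, levels were compared over 8211 genes that had at least 10 CPM in the yolk sac-like cells or in the reference and were neither score nor filter genes. By the ratio with 5 CPM added to each level, 65 genes (0.792%) were at least 2-fold higher and 17 (0.207%) at least 2-fold lower, and the median log2 ratio over all 8211 genes was -0.01. The groups were cut from the same cells, so these counts are a description of the selection with no replicate check. For 23 of the 65 and 7 of the 17 genes, 1 cell gave over 10% of the UMIs in the group where the gene was higher. In 5 of the 17 lower genes, the predicted genes Gm8994, Gm8300, Gm5039, Gm21761 and Gm20767, and in Crabp1 among the higher ones, 1 cell gave over 90% of the UMIs. With only the lowest 10% of cells (57 cells) in place of the lowest 25%, the counts were 167 and 85, and with those 57 cells left out they were 15 and 12, so the count of higher genes rests on the extreme tail of the score.

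A list of 19 further genes of yolk sac endoderm or extraembryonic VE, which the score did not use, is called yolk sac genes below. The list does not separate yolk sac endoderm from other extraembryonic VE. Of the 19, 12 reached 10 CPM and were compared. Of these, 9 stood at least 2-fold above the reference and none as far below it, beside 0.792% of all compared genes. Their median log2 ratio was 1.42, and 0.51 over all 19 with those near 0 included. The median over the 19 was 1.04 with the lowest 10% as the chosen cells, 0.19 with that 10% left out and 1.07 with 1 CPM added. Apoa2, an apolipoprotein of high-density lipoprotein, stood at 191 CPM (182 to 200.0) in yolk sac-like cells, 11.9 CPM (10.3 to 13.6) in the reference and 1.62 CPM in parietal-like cells, a ratio to the reference of 16.0-fold (13.9 to 18.6). Apoc2, the cofactor of lipoprotein lipase, stood at 113 CPM (106 to 119.9), 7.10 and 1.74 CPM, a ratio of 15.9-fold (13.2 to 19.3). Apoa4 stood at 94.9 CPM (88.8 to 101), 14.99 and 7.17 CPM, a ratio of 6.33-fold (5.51 to 7.29). All 3 apolipoprotein genes thus followed the order of the score across the 3 groups.

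The serum carriers followed the same order. Rbp4, which carries retinol in plasma, stood at 1119.6 CPM (1098 to 1141) in yolk sac-like cells, 469.5 CPM in the reference and 169 CPM in parietal-like cells. Trf, the iron carrier transferrin, stood at 27.5 CPM (24.3 to 31.1) against 1.09 CPM (0.655 to 1.70), and the fibrinogen chain gene Fgb at 30.4 CPM (27.0 to 34.2) against 2.46 CPM (1.78 to 3.31). A single cell gave 28.7% of the Trf and 17.9% of the Fgb UMIs of the yolk sac-like cells. Spink1, a trypsin inhibitor, was higher by 2.10-fold (2.06 to 2.14), at 2725 against 1299 CPM. The zinc transporter gene Slc39a5 stood at 21.9 and 7.15 CPM, with 10.2% of its UMIs in the yolk sac-like cells from a single cell. 

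Some yolk sac genes were level or short of 2-fold. Cited1 stood at 932 CPM (913 to 952) against 941 CPM (926 to 955), a ratio of 0.991-fold (0.966 to 1.02), and the calcium-binding protein gene S100g at 357 against 249.6 CPM. Apoh and Tdo2 had no UMI in any of the 144 cells, which allows a share of up to 2.08% of cells with a UMI by 3 counts of the total (Clopper-Pearson upper bound 2.53%), and the fibrinogen genes Fga and Fgg stood at 1.49 and 0.320 CPM. The liver albumin gene Alb also had none.

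**Figure D2:**
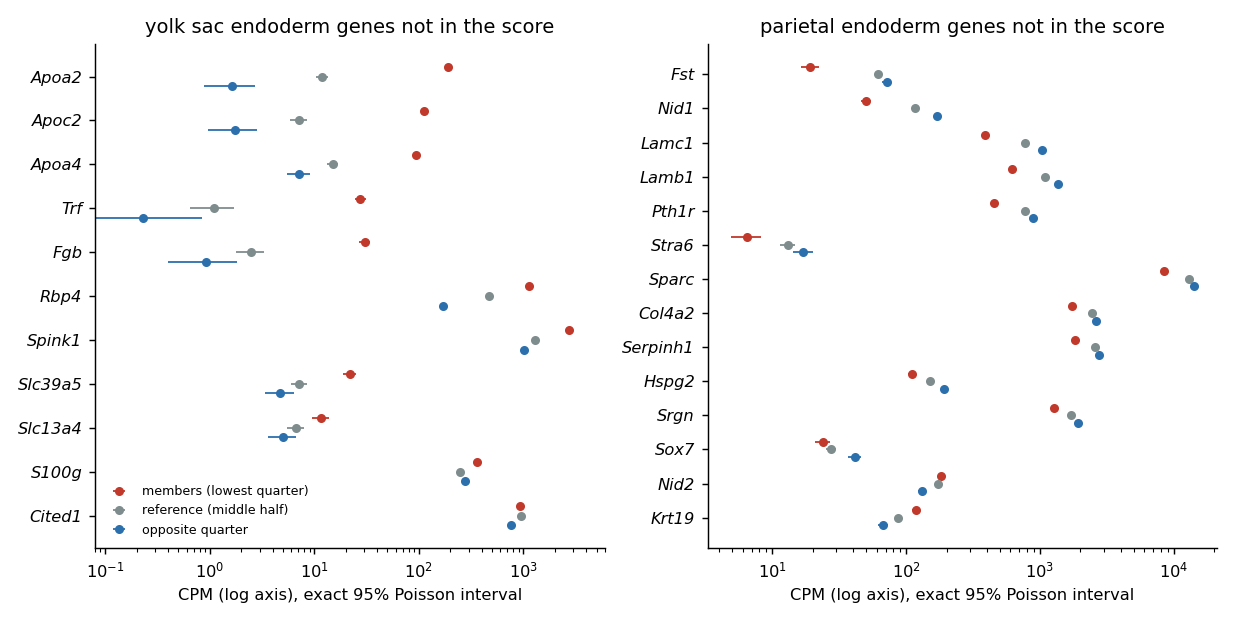
Levels in CPM on a log axis of 11 yolk sac (left) and 14 parietal endoderm genes (right) that the score did not use, in yolk sac-like cells (members, red), the reference (grey) and parietal-like cells (opposite, blue), with exact 95% Poisson intervals. Apoa2, Apoc2, Trf and Fgb lie furthest apart between red and grey, while Cited1, Nid2 and Sox7 nearly coincide.

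Single cells showed how these differences were spread. Apoa2 had a UMI in 105 of 144 yolk sac-like cells (72.9%), 82 of 289 of the reference (28.4%) and 13 of 144 parietal-like cells (9.03%). In cells thinned to 30000 UMIs each, with 16 of the 144 cells too shallow to be kept, the shares were 66.4%, 19.5% and 5.71%. Apoc2 was found in 72.9%, 23.5% and 8.33% of cells, or 63.3%, 15.3% and 5.00% after thinning. For comparison, the 44 Epi side cells of VE cysts, those with more Epi than VE marker UMIs, held a UMI of Apoa2 in 1 cell and of Apoc2 in none, and the 655 Epi side cells of Epi cysts in 4 and none, with median depths of 92106 and 60102 UMIs. Whether UMIs in Epi side cells were stray RNA or their own transcripts was not tested. Trf had a UMI in 32.6% of yolk sac-like cells, 4.84% of the reference, 4.55% of the Epi side cells of VE cysts and 5.80% of those of Epi cysts. After thinning it was found in 21.9% of yolk sac-like cells, 3.45% of the reference, 0 of 42 Epi side cells of VE cysts and 2.73% of those of Epi cysts. Before thinning, the Trf share in the reference thus lay close to that in Epi side cells. Rbp4 had a UMI in 95.8% of yolk sac-like cells and 93.1% of the reference, or 94.5% and 82.8% after thinning, against 29.5% of the Epi side cells of VE cysts and 14.7% of those of Epi cysts (14.3% and 8.20% after thinning). Its median per cell was 743 CPM in yolk sac-like cells and 196 CPM in the reference.

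The highest cells held a large part of the apolipoprotein transcripts. Among the yolk sac-like cells, Apoa2 ran from 0 through a median of 39.4 CPM to 3980.2 CPM, and 5 cells held 50% of its UMIs. For Apoc2 the median was 40.5 CPM, the highest cell was at 1478 CPM and 10 cells held 50%. The lowest 10% of the score stood at 421 CPM of Apoa2 and the rest of the yolk sac-like cells at 43.9 CPM, against 11.9 CPM in the reference. For Apoc2 these levels were 221 and 43.7 CPM against 7.10 CPM, and for Trf 61.4 and 5.95 CPM against 1.09 CPM. Rbp4 was less concentrated, at 1487 and 885 CPM against 469.5 CPM.

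**Figure D3:**
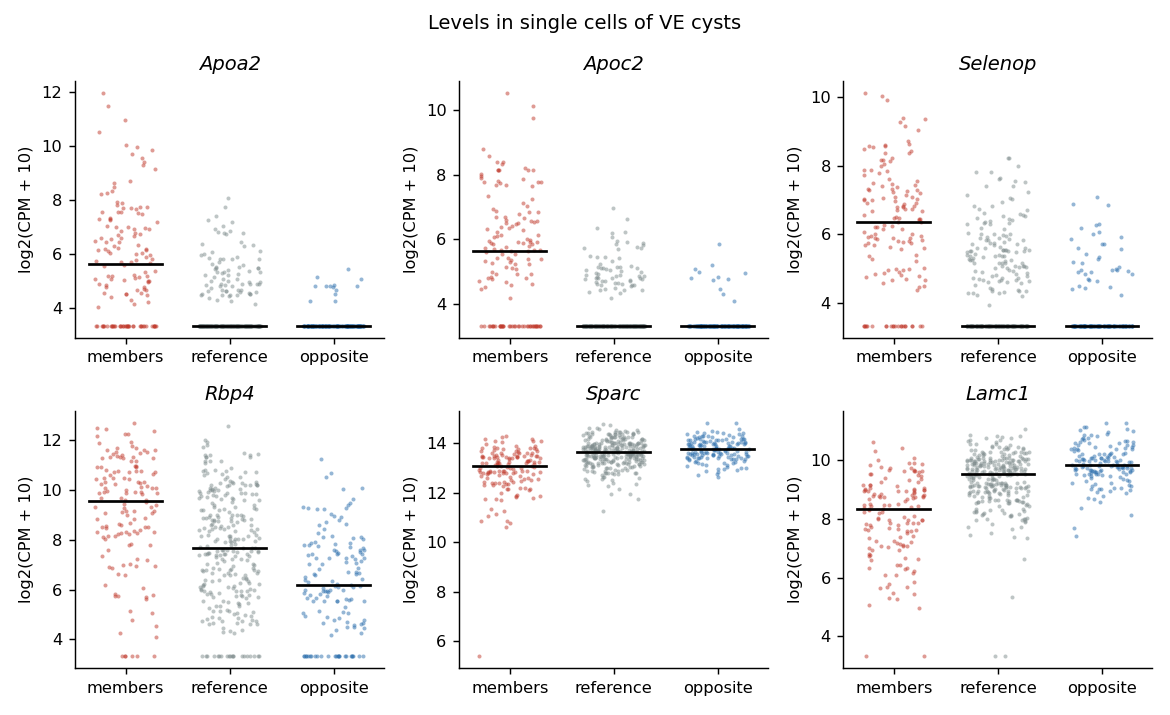
Levels of 6 genes in single cells as log2(CPM + 10), for the 144 yolk sac-like (members, red), 289 reference (grey) and 144 parietal-like cells (opposite, blue), with 1 point per cell and the median as a black line. For Apoa2, Apoc2 and Selenop the medians of the reference and of the parietal-like cells lie at 0 CPM, while Sparc and Lamc1 overlap widely between groups, and the isolated low Sparc point is the cell with 309 Crabp1 UMIs.

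The apolipoprotein genes belong to a wider group of lipoprotein assembly and lipid handling, in which 14 of 16 compared genes had a log2 ratio above 0 and 5 reached 2-fold, beside 0.792% of all compared genes. None was 2-fold lower, and the median log2 ratio was 0.46. Apart from the 3 genes above, Soat2, which esterifies cholesterol, stood at 84.0 CPM (78.2 to 90.1) against 32.8 CPM, and the fatty acid-binding protein gene Fabp1 at 58.6 CPM (53.8 to 63.7) against 25.9 CPM. A single cell gave 11.7% of the Fabp1 UMIs of the yolk sac-like cells. Mttp, which loads lipid onto Apob, stood at 195 against 132 CPM, Apoe at 6120.4 against 4471 CPM and the lipid droplet gene Plin2 at 60.5 against 38.6 CPM, all short of 2-fold. Fabp3 lay below the reference, at 2509 against 2792 CPM. The 12 cholesterol synthesis genes had a median of 0.17, with none past 2-fold.

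The promoters of the 65 higher genes were then searched for binding motifs of 4 families of endoderm regulators on both strands, in RefSeq windows of GRCm38.p6 from 250 bases before to 50 after each start, and 1 of the 4 is not reported here. The windows cover 51 of the 65 genes with 76 starts. The HNF4 motif AAAGTCCA occurred in 5 of the 76 windows (6.58%), in 84 of 8496 windows of all compared genes (0.989%) and in 410 of all 32851 windows (1.25%). The FOXA motif TGTTTAC occurred in 6 (7.89%), against 2.53% and 3.65%, and the GATA motif AGATAA in 8 (10.5%), against 5.78% and 11.2%. These are matches of letters, with no test, and do not show a bound site. The 4 windows with the HNF4 motif upstream of the start belonged to Apoa2, Muc13, Timd2 and H2-Q10, an MHC class I gene named only for its motif, whose reads may be shared with near-identical genes of its family. HNF4 was chosen for printing because its share differed most from that of all windows among the 3 given, and none of these 3 letter strings contains another. The 4 sequences are printed 5' to 3' with the flanking bases, and capitals mark the motif on either strand. It lies 170 bases before a RefSeq start of Apoa2, 186 in Muc13, 15 in Timd2 and 25 in H2-Q10. Apoa2 also has a window at another start, chr1:171224804-171225103, with the FOXA motif and without the HNF4 motif. The printed motif was thus not found at every start of Apoa2.
Apoa2, chr1:171221374-171221421, plus strand: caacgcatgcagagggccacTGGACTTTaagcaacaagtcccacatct
Muc13, chr16:33794283-33794330, plus strand: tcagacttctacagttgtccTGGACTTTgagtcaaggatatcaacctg
Timd2, chr11:46707105-46707139, minus strand: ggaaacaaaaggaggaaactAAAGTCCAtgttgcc
H2-Q10, chr17:35470044-35470088, plus strand: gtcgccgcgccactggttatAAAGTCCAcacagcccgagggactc
The level of Hnf4a, which encodes a factor of the HNF4 family, was 21.1 CPM (18.3 to 24.3) in yolk sac-like cells, 13.4 CPM (11.8 to 15.3) in the reference and 11.7 CPM in parietal-like cells.

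Genes of the uptake machinery of the VE lay nearer to the reference. Of 11 compared genes of apical endocytic receptors and adaptors, 9 lay above 0 and 1, Pdzk1, was at least 2-fold higher (0.792% of all compared genes were), with a median of 0.20. Amn, the partner of cubilin, stood at 858 CPM (839.5 to 877) against 554 CPM (543 to 566), and the folate receptor gene Folr1 at 363 against 218 CPM. The scaffold genes Pdzk1 and Slc9a3r1 stood at 40.9 against 16.0 CPM and 346 against 185 CPM. A single cell gave 10.7% of the Pdzk1 UMIs of the yolk sac-like cells. The large receptor gene Lrp2 stood at 399 against 346 CPM, and its chaperone gene Lrpap1 was lower, at 1501 against 1854 CPM. None of 12 lysosomal genes was past 2-fold, with a median of 0.09. The largest differences among them were in the protease genes Ctsc (495 against 311 CPM) and Lgmn (1930.3 against 1294 CPM), while Ctsl stood at 6592 and 6629 CPM.

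All 14 compared genes of epithelial junctions and the apical domain lay above 0, 2 of them at least 2-fold higher beside 0.792% of all compared genes, with a median of 0.54. Vil1, which bundles actin in microvilli, stood at 21.7 CPM (18.8 to 24.9) in yolk sac-like cells, 3.32 CPM (2.52 to 4.29) in the reference and 1.27 CPM in parietal-like cells, a ratio of 6.53-fold (4.85 to 8.90). It had a UMI in 47.9% of yolk sac-like cells and 14.5% of the reference, or 32.0% and 6.51% after thinning, and in none of the 44 Epi side cells of VE cysts. The keratin genes Krt18 and Krt8 stood at 530.1 against 237 CPM and 508 against 344 CPM. Podxl, an apical sialomucin, stood at 197 against 98.4 CPM, Ezr, which ties actin to the apical membrane, at 273 against 162 CPM, and the tight junction gene Cldn7 at 631 against 365 CPM. Cdh1, the epithelial cadherin, stood at 96.0, 68.4 and 51.7 CPM across the 3 groups. Of the 12 mesenchymal and motility genes, only Fn1 was compared, at 155 against 129 CPM. Among those below 10 CPM, Snai1 stood at 4.06 against 8.70 CPM, and S100a6 at 8.86 CPM with 49.4% of its UMIs from 1 cell.

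On the opposite side, 12 of 14 compared parietal endoderm genes that the score did not use lay below 0, and 2 of them, Fst and Nid1, were at least 2-fold lower, beside 0.207% of all compared genes. The median log2 ratio was -0.57 over the 14 and -0.55 over all 16. Fst, which binds activin, stood at 19.1 CPM (16.4 to 22.1) in yolk sac-like cells and 61.9 CPM (58.2 to 65.7) in the reference, lower by 3.24-fold (2.76 to 3.81). The basement membrane gene Nid1 stood at 50.2 CPM (45.7 to 54.9) against 117 CPM (112 to 122), lower by 2.34-fold (2.11 to 2.59). The laminin chain genes Lamc1 and Lamb1 stood at 387 against 774 CPM and 621 against 1097 CPM.

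The yolk sac-like cells still held much parietal transcript. Sparc, a matrix glycoprotein gene, stood at 8448 CPM in them, 13057 CPM in the reference and 14139 CPM in parietal-like cells, and Col4a2 at 1736, 2467 and 2628 CPM. The collagen chaperone gene Serpinh1 stood at 1831 against 2590.0 CPM, the receptor gene Pth1r at 457 against 778 CPM and the proteoglycan gene Srgn at 1262 against 1699 CPM. Krt19 and Nid2 went the other way, at 118 against 86.7 CPM and 182 against 172 CPM, and Sox7 stood at 23.8 CPM (20.8 to 27.1) against 27.5 CPM (25.1 to 30.1). Of 10 compared genes for collagen processing and matrix secretion, 8 lay below 0 and none was past 2-fold, with a median of -0.31, and the proline hydroxylase gene P4ha2 was the lowest, at 77.1 against 139.5 CPM. In the lowest 10% of the score, Sparc stood at 6273 CPM, Lamc1 at 197 CPM and Nid1 at 27.9 CPM, against 9837, 508 and 64.4 CPM in the other yolk sac-like cells.

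The VE markers of the filter lay on both sides of the reference. The endoderm factor genes Gata6 and Sox17 stood at 169 against 325 CPM and 114 against 168 CPM, while the endocytic genes Dab2 and Cubn stood at 1748 against 1508 CPM and 1053 against 995 CPM. The filter used only the sum of these genes, which was 3085 and 2996 CPM. The sum of the 4 Epi markers was 5.87 CPM in yolk sac-like cells, 19.9 CPM in the reference and 30.0 CPM in parietal-like cells, nearly all of it Pou5f1 (5.12, 18.9 and 28.8 CPM). Of 8 other compared endoderm transcription factor genes, 7 lay below 0 and none was past 2-fold, with a median of -0.23. Gata4 stood at 104 against 133 CPM and Foxa2 at 72.2 against 78.5 CPM, and Hnf4a, described above, was the exception. The counts of Gata4 include any transcript of the inducible transgene that the counting assigned to this gene, and its part was not tested.

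The genes with the largest ratios beyond the lists were taken by a rule, the 15 highest and 15 lowest log2 ratios among genes of at least 20 CPM in either group in which no single cell gave over 10% of the UMIs. The highest was Nrk, a kinase gene, at 126 CPM (118 to 133) in yolk sac-like cells, 18.6 CPM (16.6 to 20.7) in the reference and 7.64 CPM in parietal-like cells, a ratio of 6.75-fold (5.96 to 7.66). It was concentrated in the tail of the score, at 268 CPM in the lowest 10% and 34.8 CPM in the other yolk sac-like cells. Muc13, a transmembrane mucin gene, stood at 57.6 CPM (52.9 to 62.7) against 14.4 CPM, the galectin gene Lgals2 at 336 CPM (324 to 348) against 106 CPM and Gpc3, a glypican gene, at 389 CPM (377 to 402) against 129.6 CPM. Muc13 had no UMI in the Epi side cells of either cyst library. 

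Several of these genes encode transport or metabolic proteins. Slc7a9, an amino acid transporter gene, stood at 65.3 CPM (60.3 to 70.7) against 19.4 CPM and Ass1 of arginine synthesis at 175 CPM (166 to 184) against 59.1 CPM. Timd2 stood at 21.6 CPM (18.7 to 24.7) against 4.41 CPM and Prxl2a at 132 CPM (125 to 139.9) against 38.1 CPM. Grb10, Peg10 and Dlk1, which are known to be imprinted, stood at 24.1 against 4.98 CPM, 102 against 32.0 CPM and 179 against 59.8 CPM. Also among the 15 were 2610528J11Rik, at 56.8 against 15.2 CPM, and 4933402E13Rik, at 76.7 against 25.0 CPM. Selenop, the selenium carrier of plasma, missed the rule because 1 cell gave over 10% of its UMIs and is named after its values were seen. It stood at 148 CPM (140.3 to 156) against 23.2 CPM (21.0 to 25.6), but also had a UMI in 32.7% of Epi cyst cells, against 84.7% of yolk sac-like cells and 45.7% of the reference (18.3%, 78.9% and 35.6% after thinning).

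At the other end, Glipr2 stood at 16.8 CPM (14.2 to 19.6) in yolk sac-like cells, 62.8 CPM (59.1 to 66.6) in the reference and 109.7 CPM in parietal-like cells, lower by 3.75-fold (3.17 to 4.46). Fst, Nid1 and Lamc1 of the parietal list were also among the 15. Hs3st1 and Mme, which encode a heparan sulfate sulfotransferase and the membrane peptidase neprilysin, stood at 16.3 against 41.4 CPM and 15.9 against 39.1 CPM. Eva1a stood at 9.93 against 32.4 CPM, Clmp at 13.4 against 35.8 CPM, Car8 at 7.90 against 23.0 CPM and Fbxo15 at 20.2 against 45.4 CPM. The remaining 5, with log2 ratios between -0.96 and -0.89, were Serpinb6c, Frmd4a, the LIF receptor gene Lifr and the protease genes Htra1 and Adam19, and like Lamc1 they did not reach 2-fold with 5 CPM added. When the parietal genes of the score alone were used to choose cells, Glipr2 and Htra1 were higher in the chosen cells, with log2 ratios of 0.40 and 0.64.

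The same filter and score were applied to the VE side cells of BELAs, a library that the choice of the 144 cells did not use. There the lowest 25% were 135 of 542 cells and the middle 50% were 272 cells, with median depths of 89113 and 95118 UMIs. The score lay lower as a whole, and 360 of the 542 BELA cells (66.4%) were at or below the edge used in VE cysts. Over 7725 compared genes, 113 (1.46%) were at least 2-fold higher in the lowest 25% of BELA cells and 51 (0.66%) at least 2-fold lower. Of the 65 genes higher in VE cysts, 28 (43.1%) were also among the 113 (24.8% of them), and of the 17 lower genes, 5 (29.4%) were among the 51 (9.80%). The 2 libraries share no cells, but both differences were selected by the same 10 genes.

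The list medians of both marker sets outside the score had the same sign in the 2 libraries. In BELAs, 9 of 12 compared yolk sac genes reached 2-fold upwards, beside 1.46% of all, and none downwards. Their median was 1.59 on the log2 scale, and over all 19 genes the medians were 0.51 in VE cysts and 0.57 in BELAs. Over all 16 parietal genes they were -0.55 and -0.70. Apoa2 stood at 62.6 CPM in the lowest 25% of BELA cells and 6.90 CPM in the middle 50%, Apoc2 at 331 and 62.2 CPM, Rbp4 at 267 and 48.6 CPM and Vil1 at 28.3 and 6.52 CPM. The levels differed between libraries, and Rbp4 was at 1119.6 CPM in yolk sac-like cells of VE cysts. The aggregates differ in the Epi cells they hold, in FGF4 and heparin, in doxycycline time and in library, and these cannot be told apart here.

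A group of genes was high in the low-score cells of BELAs and near 0 in those of VE cysts. Of 9 emVE genes, none reached 10 CPM in VE cysts, and the highest in yolk sac-like cells was Eomes at 5.87 CPM. In BELAs 8 were compared and all 8 were at least 2-fold higher in the lowest 25%, beside 1.46% of all genes compared there. Lhx1 stood at 137 and 28.2 CPM in the low and middle groups of BELAs and at 2.24 and 0.343 CPM in VE cysts. Otx2 stood at 61.1 and 15.3 CPM in BELAs and at 0.107 CPM and 0 in VE cysts, and Fgf8 at 64.7 and 10.4 CPM against 0.427 and 0.114 CPM. In BELAs the low-score group thus held emVE genes beside yolk sac genes, and in VE cysts emVE transcripts were near 0 in every score group, with sums of 17.2, 12.6 and 18.6 CPM.

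The AVE genes were similar, with exceptions. Of 6, 3 were compared in VE cysts and none was past 2-fold, and in BELAs 3 of 4 were at least 2-fold higher, beside 1.46%. The Wnt antagonist gene Sfrp1 stood at 3.20 against 3.09 CPM in VE cysts and 291 against 43.7 CPM in BELAs, and Cer1 at 0.107 CPM and 0 against 3.24 and 1.09 CPM. The related gene Sfrp5 was expressed in VE cysts, at 89.3 against 93.6 CPM, and Frzb stood at 38.9 against 34.5 CPM, both short of 2-fold.

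**Figure D4:**
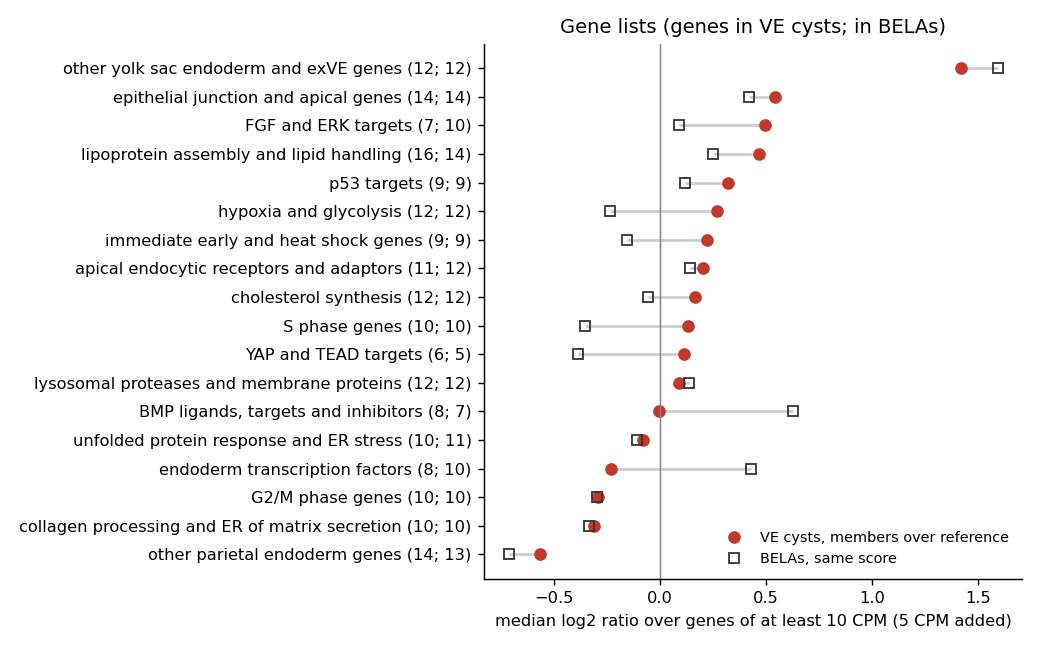
Median log2 ratios, with 5 CPM added, of 18 gene lists with at least 5 compared genes in both libraries, for yolk sac-like cells over the reference in VE cysts (red) and for the same score in BELAs (open squares), with the numbers of compared genes in parentheses. The yolk sac and epithelial lists lie above 0 and the parietal, collagen and G2/M lists below 0 in both libraries.

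Cell cycle genes differed a little. All 10 G2/M genes lay below 0, none past 2-fold, with a median of -0.29 in VE cysts and -0.30 in BELAs. Their summed level was 1140.4 CPM in yolk sac-like cells, 1398 CPM in the reference and 1607 CPM in parietal-like cells. Of 10 S phase genes, 9 lay above 0, with a median of 0.13. All 12 genes of hypoxia and glycolysis lay above 0 with a median of 0.27, among them the glucose transporter gene Slc2a1 at 397 against 269 CPM. The p53 targets had a median of 0.32 over 9 genes and the unfolded protein response -0.08 over 10, none past 2-fold.

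No compared signalling target was past 2-fold with 5 CPM added, but the medians differed between lists. The BMP list had a median of 0.03 over all 12 genes, with 4 of the 8 compared genes on each side of 0, and Id3, a BMP target, stood at 71.1 CPM (65.8 to 76.7) against 71.0 CPM. Of 7 compared FGF and ERK targets, 4 lay above 0 with a median of 0.50 and none past 2-fold, Spry1 at 14.4 against 6.98 CPM and Spry2 at 11.1 against 15.1 CPM. Of the 12 beta-catenin targets only Ccnd2 was compared, at 68.7 against 61.7 CPM, and Axin2 stood at 3.84 against 4.23 CPM. The 6 compared YAP and TEAD targets had a median of 0.11, led by Ccn1 at 115 against 59.8 CPM. Of 9 compared immediate early and heat shock genes, which can follow dissociation, 8 lay above 0 with a median of 0.22, and 1, Atf3, was at least 2-fold higher, beside 0.792% of all, at 22.5 against 7.61 CPM with 14.2% of its UMIs from 1 cell. Whether dissociation had a part in these was not tested.

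Markers of other tissues were low in the yolk sac-like cells. The summed level of 10 primitive streak and mesoderm genes was 2.24 CPM against 1.77 CPM in the reference, with no UMI of T, Mixl1, Hand1 and Evx1. The 10 blood and endothelial genes summed to 26.5 against 38.1 CPM, mostly Runx1 at 20.0 CPM. The 10 liver and gut genes summed to 42.8 against 49.6 CPM, mostly Nepn at 36.2 CPM, the 10 neural genes to 14.5 against 12.9 CPM, and the 10 trophoblast genes to 43.4 against 20.8 CPM, mostly Esx1 at 25.8 against 13.8 CPM. Of 9 formative epiblast genes, 4 were compared, all lay above 0, and 1, Utf1, was at least 2-fold higher, beside 0.792% of all, at 27.0 CPM (23.8 to 30.5) against 7.21 CPM (6.01 to 8.59), with 15.8% of its UMIs from 1 cell.

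Utf1, a chromatin factor gene of pluripotent cells, was uneven among the yolk sac-like cells, and they were divided by it. This split was chosen after its values were seen and is a description. Of the 144 cells, 22 (15.3%, 9.83 to 22.2%) had at least 2 Utf1 UMIs, 18 had 1 and 104 had none, against 16 of 289 cells (5.54%) with at least 2 in the reference and 10 of 144 (6.94%) in parietal-like cells. The 22 cells had a median of 80059 UMIs and the 104 cells 57101. Both had low scores, with medians of 0.151 and 0.434. The 22 cells held no UMI of Sox2 or Nanog, and Pou5f1 stood at 4.55 CPM in them and 5.07 CPM in the 104. As a comparison, Utf1 had a UMI in 44 of 44 Epi side cells of VE cysts and 639 of 655 of Epi cysts. Pou5f1, which stood at 691 CPM in the Epi side cells of VE cysts, did not differ between the 22 and the 104 cells beyond its counting interval. Pou5f1, Sox2 and Nanog are Epi markers of the filter, so their low levels in both sets are in part set by the choice of cells.

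The 2 sets of cells stood apart in several yolk sac genes. In the 22 cells with Utf1, Rbp4 stood at 157 CPM against 1473 CPM in the 104 cells without, lower by 9.39-fold (8.44 to 10.5), Afp at 12.3 against 188 CPM and Apoa2 at 72.3 against 259 CPM. Apob instead stood at 407 against 178 CPM, higher by 2.29-fold (2.09 to 2.50), and Apoa4 at 152 against 80.6 CPM. Apoa1 stood at 233 against 211 CPM and Apom at 316 against 301 CPM, with ratios whose counting intervals include 1. Ttr, Apoa1, Apob, Apom and Afp are score genes, and the cells were chosen by their combined level, so opposite levels of these genes are in part set by the choice. Rbp4, Apoa2 and Apoa4 were not in the score. A single cell of the 22 stood at 2311 CPM of Rbp4, which raised the level of 157 CPM. None of the others was above 358.1 CPM.

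Other genes divided the 2 sets further. The BMP targets Id1, Id2 and Id3 stood at 14.5, 57.3 and 1.82 CPM in the 22 cells and at 81.6, 286 and 102 CPM in the 104. The cell with Crabp1, which did not match the label, is among the 104 and held 8.71% of the Id3 UMIs of the 144 cells. Sfrp5 stood at 15.5 against 119 CPM, Frzb at 9.09 against 49.2 CPM and Sparc at 5095 against 9899.7 CPM. Higher in the 22 cells were Dnmt3b, a DNA methyltransferase gene of early embryonic cells, at 222 against 71.0 CPM, Spink1 at 4588 against 1928 CPM, Amn at 1294 against 718 CPM and the ERK target gene Etv4 at 24.1 against 2.62 CPM. Named only after their values were seen, Ptgds stood at 80.0 against 2.62 CPM, Pga5 at 414 against 121 CPM, Hes1 at 91.8 against 424 CPM and Cdkn1c at 18.2 against 134 CPM. A single cell gave 23.1% of the Ptgds UMIs of the 144 cells.

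The VE side cells of BELAs as a whole stood at 246 CPM of Utf1, 97.3 CPM of Rbp4, 62.2 CPM of Id2, 20.6 CPM of Sfrp5, 335 CPM of Dnmt3b and 181 CPM of Ptgds, nearer on a log scale to the 22 cells than to the 104 for each of these 6 genes. Apob, Apoc2, Apom, Trf, Id1 and Spink1 were nearer to the 104. Of the emVE genes, Lhx1 had 19 UMIs in the 22 cells (8.64 CPM) and none in the 104, and Fgf5 stood at 6.82 against 0.981 CPM, while all VE side cells of BELAs stood at 51.3 and 56.3 CPM. In cells thinned to 30000 UMIs, 29 cells with a Utf1 UMI and 99 without kept the direction of Rbp4 (644 against 1399 CPM), Id3 (26.4 against 83.5 CPM), Sfrp5 (25.3 against 129 CPM), Dnmt3b (178 against 71.4 CPM) and Apoa4 (134 against 80.5 CPM). A like difference in Rbp4 stood in the reference, at 44.2 CPM in its 16 cells with at least 2 Utf1 UMIs and 568 CPM in those with none, and in parietal-like cells, at 17.0 and 186 CPM. The difference in Id3 was smaller there, at 52.2 and 79.1 CPM in the reference and 49.9 and 63.4 CPM in parietal-like cells. Without the 22 cells, 54 genes were at least 2-fold higher and 22 at least 2-fold lower, against 65 and 17 with them.

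**Figure D5:**
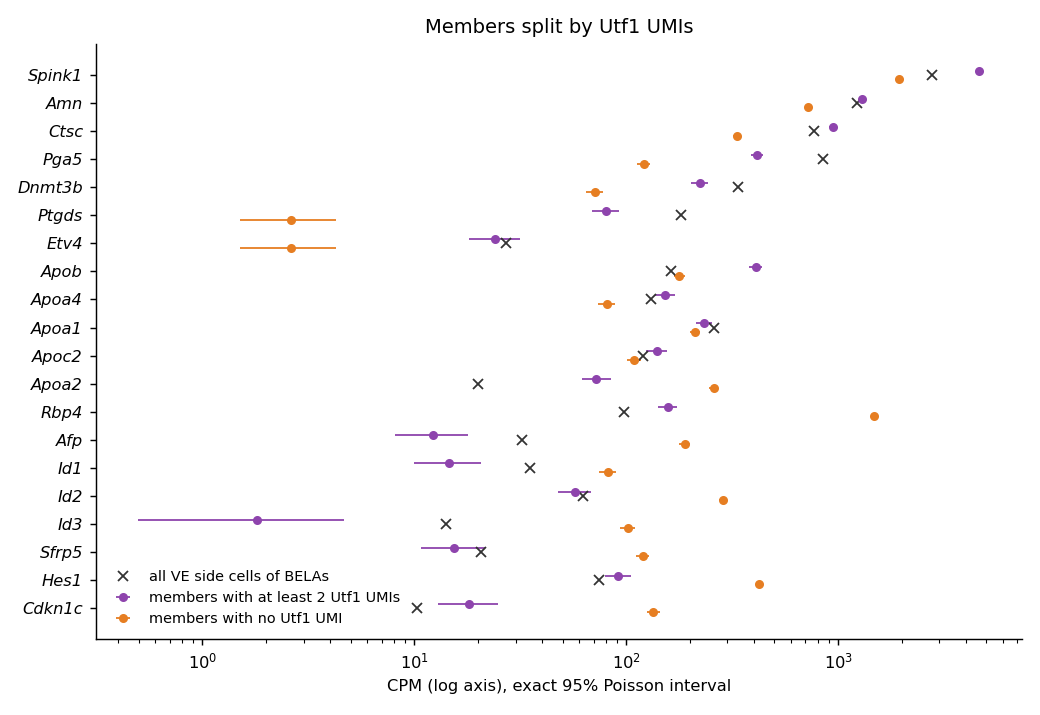
Levels in CPM on a log axis of 20 genes in the 22 yolk sac-like cells (members) with at least 2 Utf1 UMIs (purple) and the 104 with none (orange), with exact 95% Poisson intervals, and in all 542 VE side cells of BELAs (crosses). Spink1 to Apoa4 lie higher and Apoa2 to Cdkn1c lower in the purple set, while Apoa1 and Apoc2 differ little. The crosses lie nearer to purple than to orange for Amn, Ptgds, Etv4, Rbp4 and Id2 and nearer to orange for Apob.

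Across the 144 cells, the levels of 55 pairs of these genes were set against each other as rank correlations, which describe cells of 1 library that share each cell's depth. Ttr and Rbp4 had a Spearman rho of 0.62, Apob and Apoc2 0.63, and Apob and Apoa4 0.43. Rbp4 and Apob had a rho of -0.01, Rbp4 and Apoa4 -0.09 and Rbp4 and Utf1 -0.50. The genes did not fall into separate blocks. Apoa2 had a rho of 0.36 with Rbp4, 0.38 with Ttr, 0.38 with Apob and 0.50 with Apoc2. Ttr and Apob are score genes, and the cells were chosen by their combined level, which bears on each of these values.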

How the data were processed

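Reads were processed by the authors against mm10 with Cell Ranger 4.0.0, and the deposited matrices, 1 per library, hold raw UMI counts of 32285 genes per barcode. The VE cyst library held 881 barcodes, of which 625 had 4000 or more genes and no more than 10% mitochondrial UMIs, and 577, 44 and 4 of these had more VE marker UMIs, more Epi marker UMIs or equal numbers. The BELA and Epi cyst libraries held 2220 and 1076 barcodes and 1410 and 657 filtered cells. Filtered cells had median depths of 82741.5 (BELAs), 60160 (Epi cysts) and 58554 UMIs (VE cysts), and 3 counts, used as the limit for a gene with none, correspond to 0.320 CPM over the 144 yolk sac-like cells.

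UMIs were summed per group and scaled to CPM. Ratios named without intervals have 5 CPM added before the log, which understates differences of low genes, and folds with intervals are plain ratios with exact conditional 95% intervals. Genes with at least 10 CPM in either group were compared for a fold of 2, without a statistical test. Scrublet was run through scanpy 1.11.5 on all barcodes of the library. Other steps used numpy 2.4.6, scipy 1.17.1 and pandas 2.3.3 in Python 3.11.15, and the ratio and interval code was tested on simulated counts. Genes could be named if they were on a gene list or among the 15 highest and 15 lowest log2 ratios of genes with at least 20 CPM and no cell over 10% of their UMIs. The cells, the gene lists and the score were chosen with earlier results of these data known. Promoter sequences are from RefSeq, GRCm38.p6. Some genes that the rule or the lists hold are not reported here. Alternatives were other added CPM, thinned cells, mean CPM of single cells, a looser filter (3000 genes and 20% mitochondrial UMIs), other scores, the lowest 10% of cells, leaving out the barcodes called by Scrublet and no filter on low levels. 3 more were chosen after the data were seen, leaving out the lowest 10%, the cells with at least 2 Utf1 UMIs, or the cell with the least Sparc.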

Additional observations from a re-analysis of the deposited data

Results flagged for a closer look

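5 gene lists had medians of opposite sign in VE cysts and BELAs, both by the same score, among lists with at least 5 compared genes in both libraries and medians of at least 0.1 in size. With 1 library each, the difference between libraries was not tested. The endoderm transcription factors had a median log2 ratio of -0.23 in VE cysts (8 genes) and 0.43 in BELAs (10 genes). In BELAs 2 of the 10, Eomes and Foxa3, were at least 2-fold higher, beside 1.46% of all genes compared there. Eomes is also among the emVE genes given above. The YAP and TEAD targets had medians of 0.11 and -0.39, with Ccn1 at 115 against 59.8 CPM in VE cysts and 27.5 against 47.2 CPM in BELAs. The S phase genes had medians of 0.13 and -0.35, with 9 of 10 genes above 0 in VE cysts and 10 of 10 below 0 in BELAs. Hypoxia and glycolysis genes had medians of 0.27 and -0.24, with 12 of 12 above 0 and 9 of 12 below 0. The immediate early and heat shock genes had medians of 0.22 and -0.15.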

How the results depend on the processing

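The number of genes at least 2-fold higher, 65, was 101 with 1 CPM and 26 with 20 CPM added, 167 with the lowest 10% of the score as the chosen cells and 15 with that 10% left out. The number at least 2-fold lower, 17, was 35 and 4 with 1 and 20 CPM added, 26 in thinned cells, 27 by the mean of the CPM of single cells, 8 with the yolk sac genes and 1 with the parietal genes of the score alone, and 85 with the lowest 10%. The median of the other yolk sac genes, 0.51, was 1.07 with 1 CPM added, 0.35 with the parietal genes of the score alone, 1.04 with the lowest 10% and 0.19 without it. The median of the other parietal genes, -0.55, was -0.41 with the yolk sac genes of the score alone, -0.85 with the lowest 10% and -0.39 without it. In BELAs the yolk sac median, 0.57, was 1.44 and 0.54 with 1 and 20 CPM added and the parietal median, -0.70, was -0.82 and -0.48. The BELA medians were run under 3 alternatives and the others under 14, and none of the 4 medians changed sign. Among the 30 named genes, Glipr2 (0.40) and Htra1 (0.64) changed direction with the parietal genes of the score alone, and all 30 kept theirs in the other 13 alternatives. Counting intervals of levels and ratios do not cover the spread between cells, the added CPM or the place of the edge. With 1 library per condition, the spread between cultures is unknown. No paired analysis was possible because no result comes from a test and the labels give no replicate numbers.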

Other observations

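Meg3, Rian and Mirg, noncoding RNAs of the imprinted Dlk1-Dio3 region named after their values were seen, were found in few cells. At least 10 Meg3 UMIs were counted in 21 of the 577 VE side cells of VE cysts, 0 of the 144 yolk sac-like cells (Clopper-Pearson interval 0 to 2.53%), 15 of 289 in the reference (5.19%, 2.93 to 8.42%) and 6 of 144 parietal-like cells (4.17%, 1.54 to 8.85%). These 21 cells held Meg3 at 902 CPM and the other 556 at 0.351 CPM, and all 21 had a Rian UMI against 8 of the 556. In the 144 yolk sac-like cells Meg3 had 2 UMIs and Rian 9. Dlk1, the coding gene of the same region, stood at 29.4 CPM in the 21 cells and 86.9 CPM in the 556, which include the yolk sac-like cells with their high Dlk1. Without them it stood at 52.1 CPM in the other 412 cells. Of the 542 VE side cells of BELAs, 31 (5.72%) had at least 10 Meg3 UMIs.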
